A study of Homo sapiens with 20 samples.

Results

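A set of 9 genes of the TGF-beta pathway, TGFBR1, TGFBR2, TGFB1, SMAD3, SMAD4, SMAD7, SKIL, TGFBI and TGIF1, were followed through 16 H3K27ac ChIP-seq libraries of HCT-116 cells, a human colorectal carcinoma line. They are 9 of the 20007 protein-coding genes of the annotation, and they were chosen by pathway membership with earlier peak calls and folds of these libraries known. Their regions were selected on the peak calls themselves. A peak or super-enhancer was assigned to a gene when it overlapped the gene body or the 10 kb on either side. For TGFBR2 the distal sequence up to 500 kb on either side was read as well. Overlapping peaks of different libraries were merged into regions, and 99 of the 58860 merged regions fell in these windows. They held 602 of the 271550 peaks on the main chromosomes.

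TGF-beta ligands such as TGFB1 bind a pair of receptor kinases, TGFBR2 and TGFBR1, and the activated receptors phosphorylate SMAD3 and its relative SMAD2. These join SMAD4, enter the nucleus and regulate target genes. SMAD7 is induced by the pathway and blocks the receptors, SKIL and TGIF1 repress SMAD-dependent transcription, and TGFBI encodes a secreted matrix protein whose gene is a classical target. In colon epithelium the pathway restrains growth, and HCT-116 cells, which are deficient in mismatch repair, are known to carry an inactivating mutation of TGFBR2. H3K27ac marks active promoters and enhancers, and a super-enhancer is a cluster of such enhancers stitched together by the ROSE algorithm.

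The cells were wild type for FBXW7 (WT) or knocked out for it (KO), FBXW7 being the substrate receptor of a ubiquitin ligase and a colorectal tumour suppressor. All were transfected for 48 h with a control esiRNA (esiCT) or with an esiRNA against the deacetylase HDAC4 (esiHDAC4), with oxaliplatin at 50 µM over the final 24 h (OXPT) or without it (UNT). Each of the 8 groups had 2 libraries, lettered A and B, and per the labels the chromatin came from 3 experiments that were combined. The KO cells were a purchased line, whether it is 1 clone was not given in the sources used here, and p-values measure the spread between these libraries, which may be in part technical. Peak lists carry no reading of FBXW7 or HDAC4 themselves.

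The lists differed greatly in length, and this touches every comparison of the 2 genotypes. WT libraries held 10562 to 27927 peaks, KO letter A libraries 12639 to 21875, and KO letter B libraries 1752 to 8216, the shortest being KO esiHDAC4 UNT B. Super-enhancer lists ran from 66 to 1265 entries. Read totals were not used here, and the background at a peak summit, solved from the fold and p-value of each peak, was 1.02 to 3.07 reads. Of 9 markers of colon epithelium, 6 had a start-site peak in at least 8 libraries (KRT20 and CDX1 had none), against 1 of 8 markers of other cell types, COL1A1. Because a place without a peak may only lie under the calling limit of a short list, values are given for letter A and letter B apart where they differ.

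The sequences the results turn on are given here, from the RefSeq promoter table (build GRCh38.p14) or from hg38. The promoters of TGFBR2 (chr3:30606106-30606405, plus strand) and SMAD3 (chr15:67065352-67065651, plus strand) are 300 bases each, as that table gives them. The TGFBR2 promoter ends before the gene start used for distances (chr3:30606601), and the SMAD3 promoter lies past its gene start (chr15:67063763). Both promoters lie within the called start-site regions. They are shown because the TGFBR2 start site was called in 15 libraries and the first SMAD3 start site in 8 WT and 4 KO libraries.
TGFBR2 promoter: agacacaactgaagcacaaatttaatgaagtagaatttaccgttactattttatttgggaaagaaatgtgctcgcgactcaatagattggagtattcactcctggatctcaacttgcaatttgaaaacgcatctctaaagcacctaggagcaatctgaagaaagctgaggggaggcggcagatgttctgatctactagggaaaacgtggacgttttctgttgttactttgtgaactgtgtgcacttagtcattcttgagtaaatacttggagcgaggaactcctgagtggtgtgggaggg
SMAD3 promoter: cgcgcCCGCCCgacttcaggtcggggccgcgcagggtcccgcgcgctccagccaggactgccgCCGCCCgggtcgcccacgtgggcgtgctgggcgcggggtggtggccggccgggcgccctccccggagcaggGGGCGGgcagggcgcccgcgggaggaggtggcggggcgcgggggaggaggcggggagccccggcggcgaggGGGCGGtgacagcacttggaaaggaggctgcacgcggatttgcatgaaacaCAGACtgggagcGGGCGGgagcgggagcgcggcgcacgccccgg
The next 4 are 300 bases around the median peak summit, on the plus strand. The first is the intronic TGFBR2 region found in every library (chr3:30610442-30610741). The second lies far upstream of TGFBR2 and was called only in OXPT libraries (chr3:30227479-30227778), and the third was called only in WT libraries (chr3:30343110-30343409). The last lies upstream of SMAD3 and was called in every WT library (chr15:67040059-67040358).
TGFBR2 intron: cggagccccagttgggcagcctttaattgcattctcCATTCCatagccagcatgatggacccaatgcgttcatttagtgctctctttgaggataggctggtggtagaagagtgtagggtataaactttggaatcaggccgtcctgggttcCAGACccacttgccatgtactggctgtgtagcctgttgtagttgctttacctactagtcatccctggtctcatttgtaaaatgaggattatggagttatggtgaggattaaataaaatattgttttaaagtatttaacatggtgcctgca
TGFBR2 far upstream, OXPT: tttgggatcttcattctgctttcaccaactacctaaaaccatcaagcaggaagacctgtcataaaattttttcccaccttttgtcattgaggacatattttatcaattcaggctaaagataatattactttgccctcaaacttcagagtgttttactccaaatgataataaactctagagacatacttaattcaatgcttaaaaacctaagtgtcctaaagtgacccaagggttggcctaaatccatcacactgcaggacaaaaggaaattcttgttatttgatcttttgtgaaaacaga
TGFBR2 far upstream, WT: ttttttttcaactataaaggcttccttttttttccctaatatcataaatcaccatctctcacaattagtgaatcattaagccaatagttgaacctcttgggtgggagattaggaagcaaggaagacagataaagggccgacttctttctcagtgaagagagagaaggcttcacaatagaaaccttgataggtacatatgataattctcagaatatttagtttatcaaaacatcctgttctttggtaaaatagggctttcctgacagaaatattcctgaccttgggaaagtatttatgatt
SMAD3 upstream, WT: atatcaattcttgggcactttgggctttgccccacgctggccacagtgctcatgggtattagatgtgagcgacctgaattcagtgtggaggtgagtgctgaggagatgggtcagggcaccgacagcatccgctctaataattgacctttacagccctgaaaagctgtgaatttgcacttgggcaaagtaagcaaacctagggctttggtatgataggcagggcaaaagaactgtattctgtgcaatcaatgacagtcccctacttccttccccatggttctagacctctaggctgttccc
Capitals mark matches to the motifs searched on both strands: AP-1 (TGACTCA or TGAGTCA), the SMAD palindrome GTCTAGAC, the SMAD half-site CAGAC or GTCTG, the TEAD motif GGAATG or CATTCC, the GC box GGGCGG or CCGCCC, and the p53 half-site. These are reference sequences, not the sequence of the cells. The TGFBR2 promoter held no match and 42.3% G and C, and the SMAD3 promoter held 5 GC boxes, 1 SMAD half-site and 80.3% G and C. A GC box occurred in 45% of 35116 promoters and a SMAD half-site in 45.3%. The intronic TGFBR2 region held 1 SMAD half-site and 1 TEAD motif, found in 44.5% and 14.1% of the 10762 regions called in at least 8 libraries, and the other 3 windows held no match. No promoter of the 9 genes held AP-1, a motif found in 4.95% of all promoters, and 5 of the 9 held a SMAD half-site.

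TGFBR2, the receptor that binds the ligand first, had H3K27ac peaks in all 16 libraries and a super-enhancer in 13. Its 107.5 kb window held 23 and 24 peaks in WT esiCT UNT (letters A and B), 13 and 12 in WT esiCT OXPT, 16 and 21 in WT esiHDAC4 UNT, and 11 and 12 in WT esiHDAC4 OXPT. In KO cells it held 11 and 7 in esiCT UNT, 20 and 7 in esiCT OXPT, 12 and 3 in esiHDAC4 UNT, and 14 and 12 in esiHDAC4 OXPT. By the total over the libraries TGFBR2 ranked 38 of 20007 genes, and its highest summit fold, the read pile at the summit over the local background, was 4.63 to 8.87 (median 6.18). Longer windows can hold more peaks, and per length TGFBR2 had a median of 11.2 peaks per 100 kb. A peak in the window in all 16 libraries was seen for 484 genes, 2.42%. The grid of peak numbers shows TGFBR2 and SMAD3 with many peaks, TGIF1 with a few in every library, and the others with few or none.

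**Figure D1:**
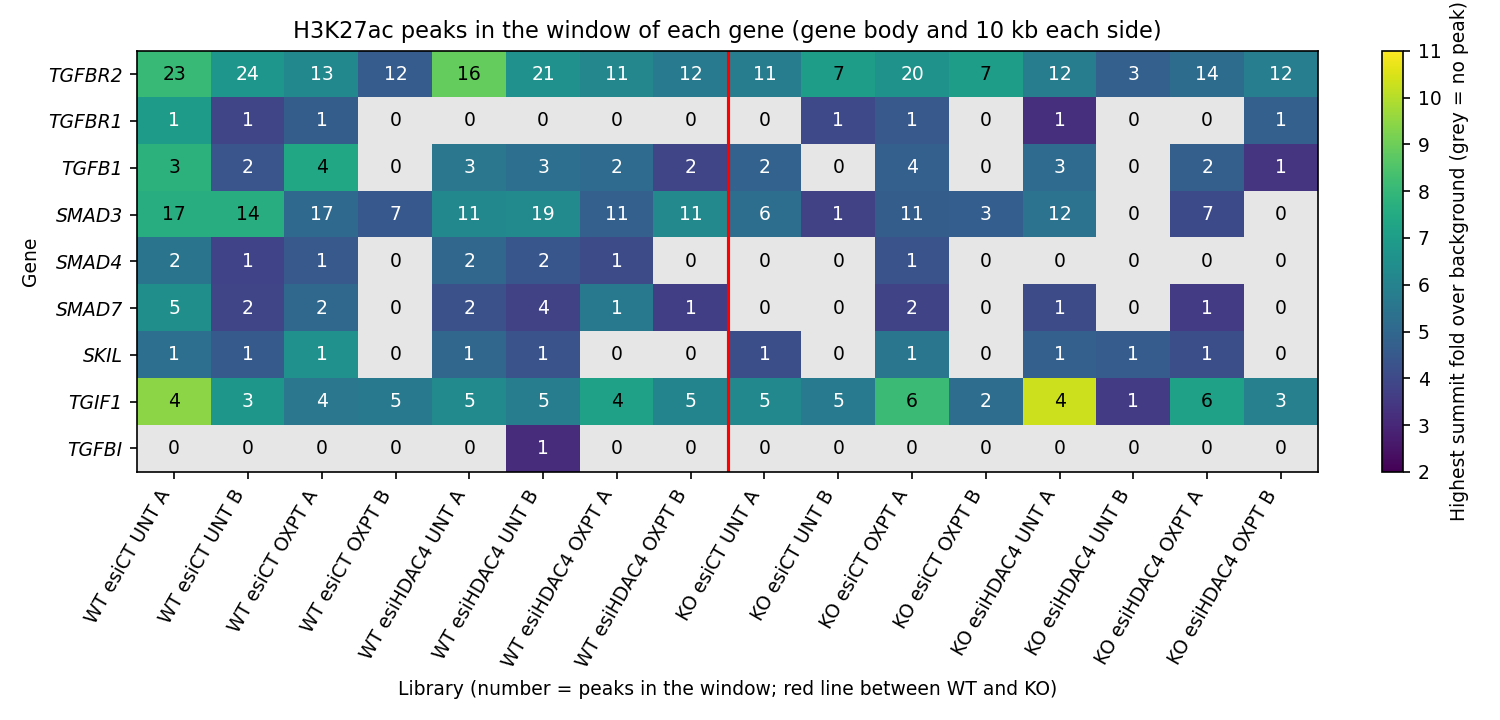
Peaks in the window of each gene (number in the cell) and the highest summit fold among them (colour, grey where no peak was called), for the 9 genes (rows) in the 16 libraries (columns, WT left of the red line, KO right). TGFBR2 and TGIF1 have a peak in all 16 libraries, and TGFBI in 1.

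A super-enhancer lay over the TGFBR2 start site in 13 of the 16 libraries, 6 of 8 WT and 7 of 8 KO. A super-enhancer in at least 13 libraries was found for 102 genes, 0.51% of all. The 3 libraries without one were WT esiCT OXPT B, WT esiHDAC4 OXPT A and KO esiHDAC4 UNT B. The longest, in WT esiCT UNT A, spanned 47.3 kb (chr3:30596406-30643738) and the shortest over the start, in KO esiCT OXPT B, 15.2 kb. The difference between the genotypes did not pass (exact test stratified by letter, p = 1, adjusted p = 1), and 0% of 739 genes passed that test in any of the 3 comparisons. Over 16 libraries this test allows few outcomes, so here and below not passing it says little.

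Of the 31 regions in the TGFBR2 window, 7 were called in at least 8 libraries and 17 in 1 library alone. The intronic region 1401 bp past the start (chr3:30608002-30613307) was the 1 region called in all 16 libraries, with folds of 2.81 to 6.06. The start-site region (chr3:30604383-30607758) was called in 15, all but KO esiCT OXPT B, as were an upstream region (chr3:30595315-30597269) and an intronic one 50770 bp past the start (chr3:30657371-30661228), both missing only in KO esiHDAC4 UNT B.

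The start-site fold of TGFBR2 was 8.06 and 6.72 in WT esiCT UNT, 8.87 and 6.55 in WT esiHDAC4 UNT, 6.18 and 4.52 in WT esiCT OXPT, and 6.18 and 5.73 in WT esiHDAC4 OXPT. The 4 WT OXPT values thus all lay below the 4 WT UNT values, as they did for 12.6% of the 3705 regions called in all 8 WT libraries. In KO cells it was 5.67 and 4.92 in esiCT UNT, 5.48 and 4.77 in esiHDAC4 UNT, 5.94 in esiCT OXPT A, and 4.46 and 5.85 in esiHDAC4 OXPT, and UNT and OXPT overlapped. After centring each library on its regions shared by all, the difference of OXPT from UNT in WT esiCT was -0.08 on the log2 scale (limma, adjusted p = 0.997). KO against WT came to -0.48 (limma, adjusted p = 0.0607), beside a median of -0.49 over all regions. KO esiCT OXPT B had no call here, so its value in the fit was set to 1.45, the lowest fold of its list, not measured. Leaving out 1 library gave -0.72 to -0.24. The difference did not pass in 13 of the 16 runs with 1 library left out, nor in 5 of 6 other settings. It passed without KO esiCT OXPT A (-0.72, adjusted p = 0.0104), without KO esiHDAC4 UNT A (-0.42, adjusted p = 0.0379), without KO esiHDAC4 UNT B (-0.54, adjusted p = 0.0341) and without centring (-0.53, adjusted p = 0.0471).

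**Figure D2:**
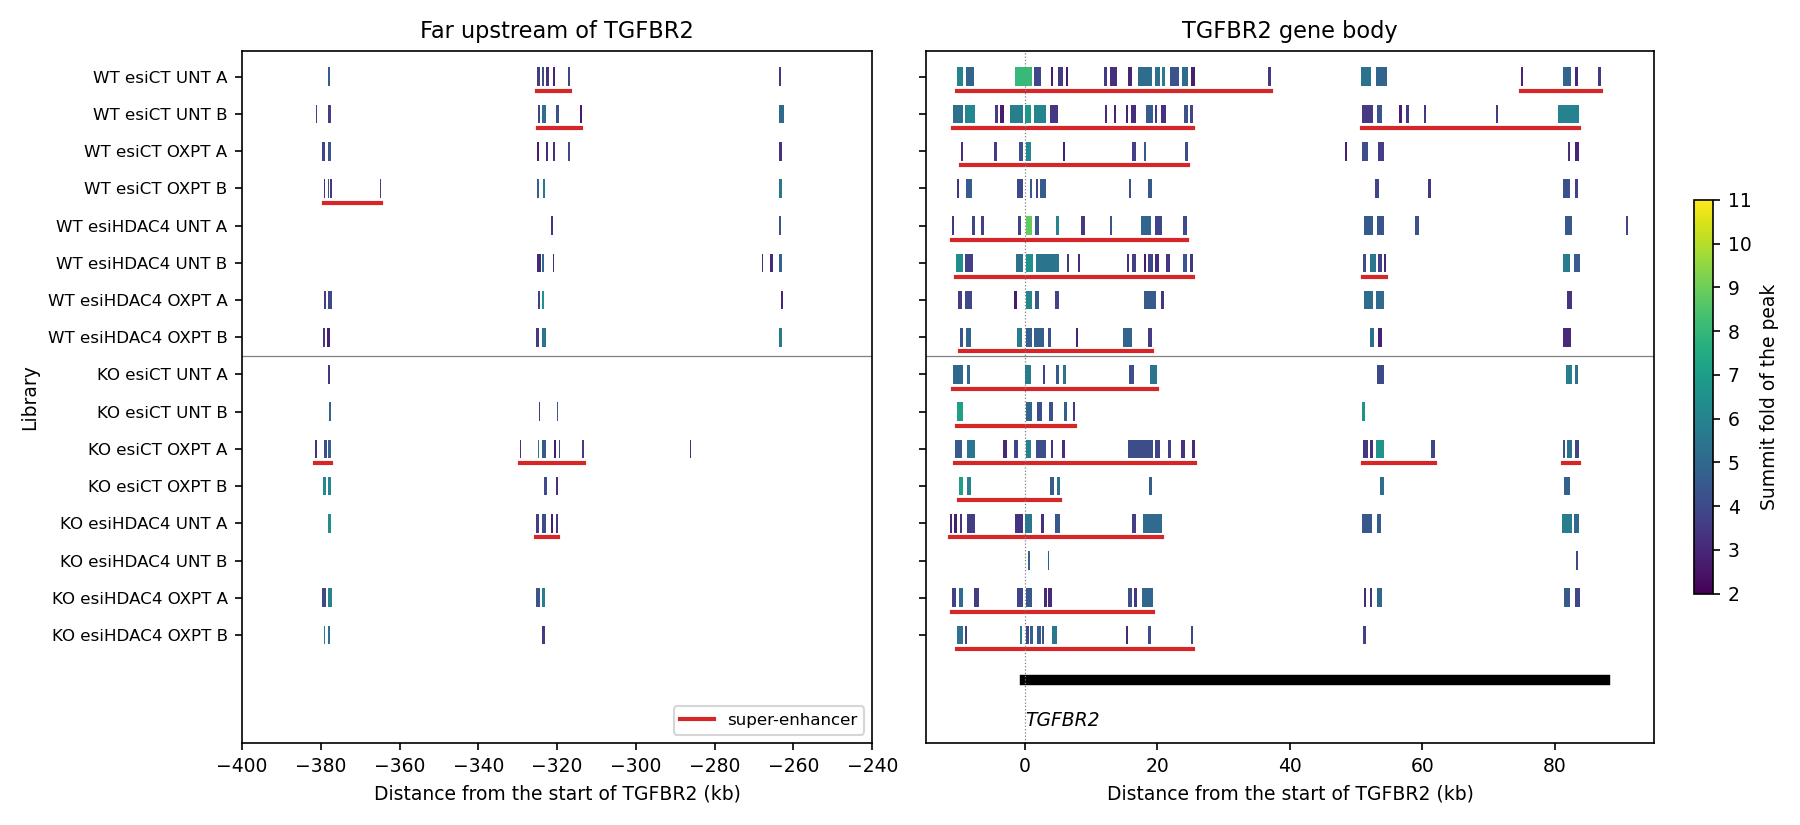
Peaks (bars, coloured by summit fold) and super-enhancers (red lines) in the 16 libraries by distance in kb from the start of TGFBR2, far upstream (left) and over the gene (right, black bar). The cluster around the start recurs in WT and KO, and the group of peaks closest to the gene in the left panel is present in the 8 WT libraries and in no KO library.

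Far upstream of TGFBR2, 2 regions were called in every library of one condition and in none of the other. They were picked for this pattern and are described without a test. The region chr3:30226859-30228034, 378567 bp upstream, was called in all 8 OXPT libraries and in no UNT library. Its folds were 3.80 and 3.23 in WT esiCT, 3.65 and 3.43 in WT esiHDAC4, 4.14 and 6.29 in KO esiCT, and 3.99 and 5.74 in KO esiHDAC4. The estimated reads at these summits were 14 to 20. Over all 20090 regions called in 3 to 13 libraries, 5 were called in every OXPT and no UNT library, 0.0249%, and 0 did the reverse. The neighbouring region chr3:30228223-30229353 was called in 13 libraries, 8 OXPT and 5 UNT, and the one at chr3:30282665-30284589 in 8 OXPT and 4 UNT.

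The second region, chr3:30342833-30344098, 262503 bp upstream, was called in all 8 WT libraries and in no KO library. Its folds were 3.46 and 5.03 in esiCT UNT, 3.34 and 5.56 in esiCT OXPT, 4.42 and 4.79 in esiHDAC4 UNT, and 2.93 and 5.60 in esiHDAC4 OXPT, with 13 to 24 estimated reads. It was absent from the KO letter A lists too. Its WT letter A folds were 2.93 to 4.42, and the lowest folds called at low background in the KO letter A lists were 2.88 to 3.37. Whether the missing calls only lie under the calling limit was not tested. This split was seen for 29 regions, 0.144%, and the reverse for 1. GADL1, the other protein-coding gene within 500 kb of TGFBR2, had no peak in any library. Super-enhancers in this far sequence were listed in 5 libraries, WT esiCT UNT A and B, WT esiCT OXPT B, KO esiCT OXPT A and KO esiHDAC4 UNT A. Which gene these regions act on was not measured.

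TGFBR1, the partner receptor, had at most 1 peak per library, in 7 libraries, 3 WT and 4 KO, with folds of 3.25 to 6.93. These peaks fell in 2 regions, one 228 bp past the start (chr9:99105378-99106069) in 5 libraries and one 922 bp past it (chr9:99106072-99106534) in KO esiCT UNT B and KO esiHDAC4 OXPT B. TGFB1, the ligand, had 0 to 4 peaks, in 12 libraries. Its start-site region (chr19:41351405-41354532), which also covers a start of TMEM91, was called in 10, in all 8 letter A libraries with folds of 4.73 to 7.77, and in 2 letter B libraries, both WT UNT, with 3.13 and 3.55. A region at the start of CCDC97, in the same window, was called in 11 libraries, and one closest to a start of B9D2 in 14, so that part of the TGFB1 count lies at other genes.

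SMAD3, the receptor-activated SMAD, had 7 to 19 peaks in WT and 0 to 12 in KO, a difference that did not pass the threshold. Its window held 17 and 14 peaks in WT esiCT UNT, 17 and 7 in WT esiCT OXPT, 11 and 19 in WT esiHDAC4 UNT, and 11 and 11 in WT esiHDAC4 OXPT. In KO cells it held 6 and 1 in esiCT UNT, 11 and 3 in esiCT OXPT, 12 and 0 in esiHDAC4 UNT, and 7 and 0 in esiHDAC4 OXPT. WT and KO overlapped in letter A, 14 ± 3.46 against 9 ± 2.94 (mean ± SD, n = 4 each), and did not in letter B, 12.8 ± 5.06 against 1 ± 1.41. On the log2(number + 1) scale KO minus WT was -1.78 (exact permutation test within letters, p = 0.00245, adjusted p = 0.0517), beside a median of -0.59 over all 10411 genes tested, of which 0% passed and 0.211% had KO wholly below WT. For SMAD3 the groups overlapped. The difference was -0.60 within letter A and -2.95 within letter B, where all genes had medians of -0.20 and -0.98. The call was made without any 1 of 5 libraries, WT esiCT OXPT B, WT esiHDAC4 UNT A, WT esiHDAC4 OXPT A, KO esiCT OXPT A or KO esiHDAC4 UNT A, with adjusted p from 0.0322 to 0.045.

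Relative to the length of each list, the SMAD3 values in KO were lower than in WT without passing the threshold. Per 10000 peaks it had 5.99 ± 0.726 peaks in WT letter A and 4.81 ± 0.758 in KO letter A, and 6.20 ± 0.699 in WT letter B and 1.32 ± 1.73 in KO letter B (mean ± SD, n = 4 each). The log2 difference was then -1.11 (adjusted p = 0.0784). On this scale TGFBR2 came to 0.40 and TGIF1 to 0.63, against -0.66 (adjusted p = 0.114) and -0.20 (adjusted p = 0.476) for plain numbers, none past the threshold. By letter the plain differences were -0.12 (A) and -1.20 (B) for TGFBR2, and 0.24 (A) and -0.65 (B) for TGIF1. In the plot against list length, SMAD3 falls to 0 in the shortest lists while TGFBR2 keeps at least 3 peaks.

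**Figure D3:**
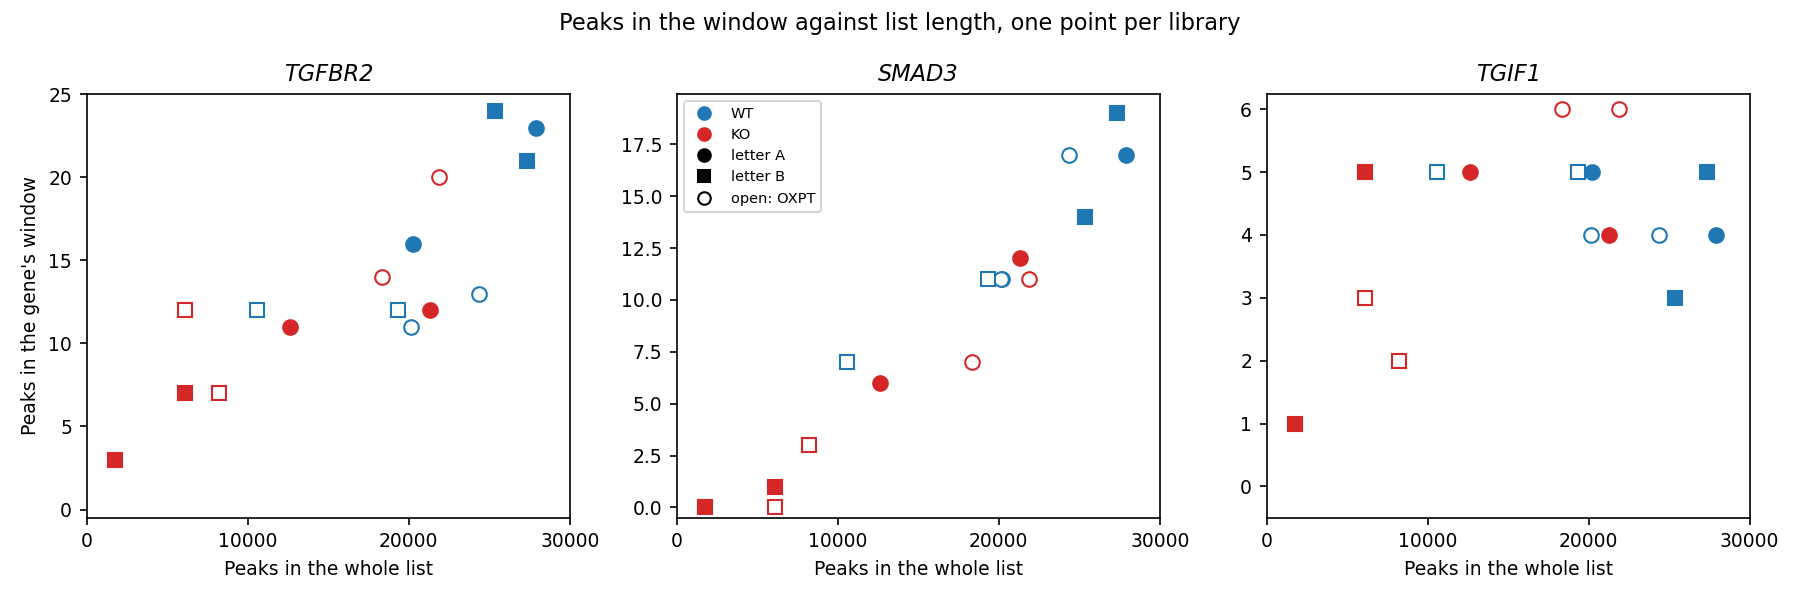
Peaks in the window of TGFBR2, SMAD3 and TGIF1 (vertical axes) against all peaks of the library's list (horizontal axes), 1 point per library; WT blue, KO red, letter A circles, letter B squares, open symbols OXPT. SMAD3 has 0 peaks in 2 of the KO letter B lists, and TGFBR2 at least 3 in every list.

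The first start-site region of SMAD3 (chr15:67063462-67069013) had a call in 8 WT libraries and 4 KO libraries. Its folds in WT were 7.61 and 7.61 in esiCT UNT, 5.09 and 3.61 in esiCT OXPT, 6.20 and 6.26 in esiHDAC4 UNT, and 4.75 and 6.23 in esiHDAC4 OXPT. In KO letter A they were 5.26, 4.64, 4.89 and 3.26, and KO letter B had no call. In letter A the 2 genotypes overlapped. With uncalled libraries set to the lowest fold of their list, KO minus WT was -1.15 ± 0.32 (log2, SE, limma, adjusted p = 0.00598), and 20.9% of the 10762 regions tested were called lower and 0.26% higher, with a median of -0.49 over all. The region entered this fit through its 8 WT calls, and its 4 KO letter B values were set, not measured, so the result is a description only. Where all libraries had a call, in letter A, the fold was 5.91 ± 1.29 in WT and 4.51 ± 0.872 in KO (mean ± SD, n = 4 each), with overlap. The fitted difference was -0.49 (adjusted p = 0.025) with uncalled libraries set to the lowest fold that could be called at low background, where this setting was added after the data were seen. The call was lost without the letter in the fit (adjusted p = 0.0504) and without WT esiCT UNT B (-1.03, adjusted p = 0.0513).

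**Figure D4:**
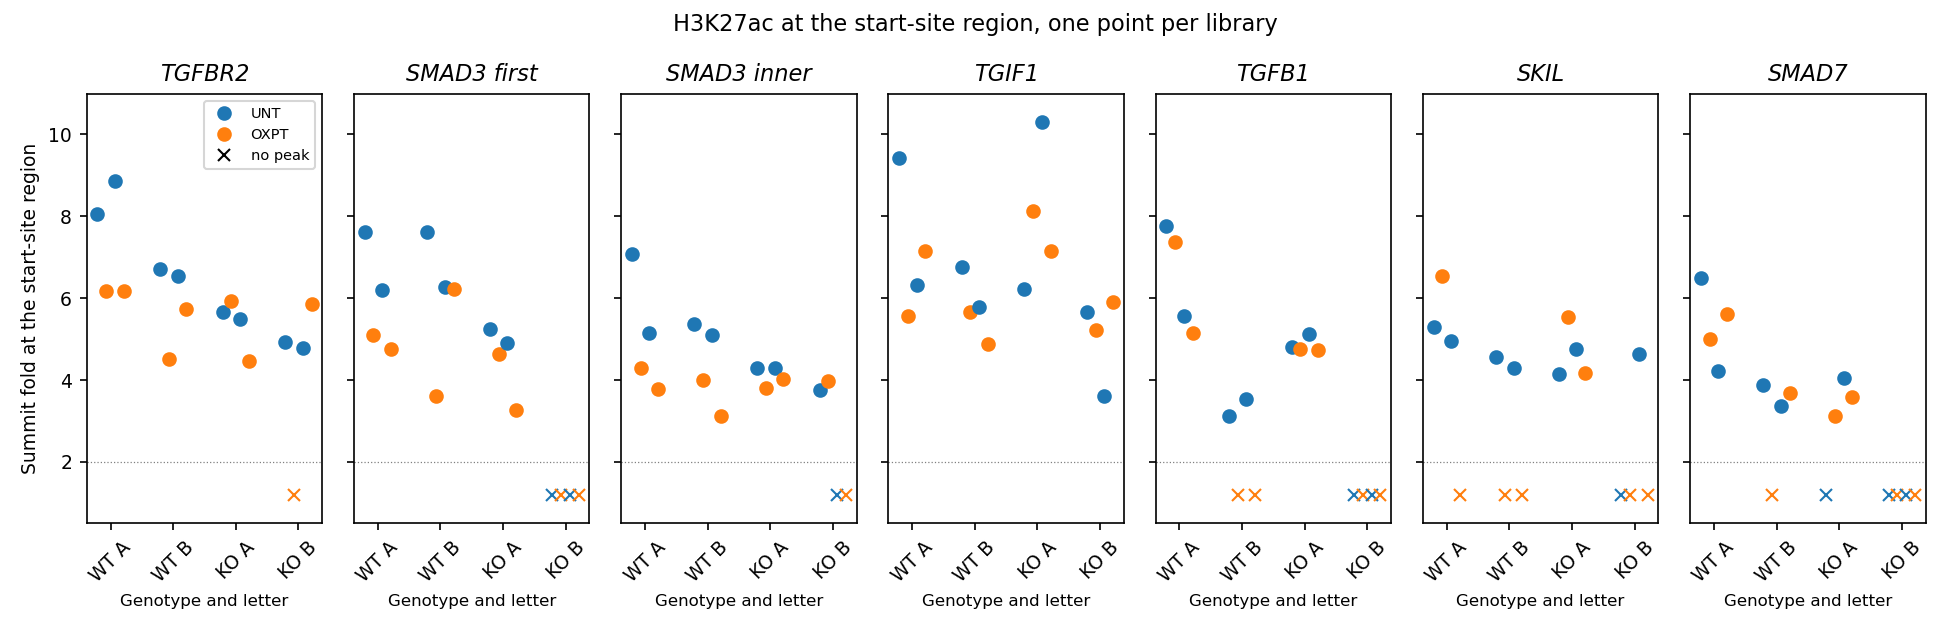
Summit fold at the start-site region (vertical axis) in each library, by genotype and letter; UNT blue, OXPT orange, crosses under the dotted line mark libraries with no call. SMAD3 has 2 such regions, the first start and an inner one. The 4 KO letter B libraries have no call at the first SMAD3 start, at TGFB1 or at SMAD7, while TGIF1 is called in all 16 libraries.

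An inner start-site region of SMAD3 (chr15:67123240-67127390) was called in 14 libraries, missing only in KO esiHDAC4 B, UNT and OXPT. Its fold was 5.10 to 7.07 in WT UNT and 3.11 to 4.31 in WT OXPT, which did not overlap, the pattern of 12.6% of regions called in all 8 WT libraries, and 3.77 to 4.30 in the KO libraries with a call. A SMAD3 super-enhancer was listed in 6 WT libraries and 1 KO library of 8 each (exact test stratified by letter, p = 0.0469, adjusted p = 0.679). It spanned 82.2 kb in WT esiCT UNT A (chr15:67039435-67121592), the longest of all those of the 9 genes, and in KO it was listed in esiCT OXPT A only. In letter A the count was 3 of 4 WT against 1 of 4 KO, and in letter B 3 of 4 against 0 of 4. Of the 1617 genes with a super-enhancer, 6.56% had one in at least 3 WT letter B libraries and in no KO letter B library.

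The 10 kb limit cut through this locus. Just inside it, a peak 7917 bp upstream was called in 1 library. Just outside, chr15:67048125-67049579, 14.2 kb upstream, had a call in every WT library and in 1 KO library, with folds of 3.02 to 5.06, and chr15:67038717-67042920, 20.8 kb upstream, likewise, with folds of 2.92 to 6.64. The 1 KO call was in esiCT OXPT A for the nearer and in esiHDAC4 OXPT A for the farther. Both regions were thus missing from most KO letter A lists. They were chosen after their values were seen and were not tested, and 0.864% of the 10762 regions called in at least 8 libraries were in all WT and at most 1 KO library. From 10 to 50 kb upstream SMAD3 had 2 to 8 peaks in WT and 0 to 2 in KO, and a super-enhancer in 6 WT libraries and no KO library. With a window of 50 kb SMAD3 came to -2.18 (exact permutation test, adjusted p = 0.0327), a scale on which 23% of 13778 genes were called lower, and TGFB1 to -0.64 (adjusted p = 0.045).

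**Figure D5:**
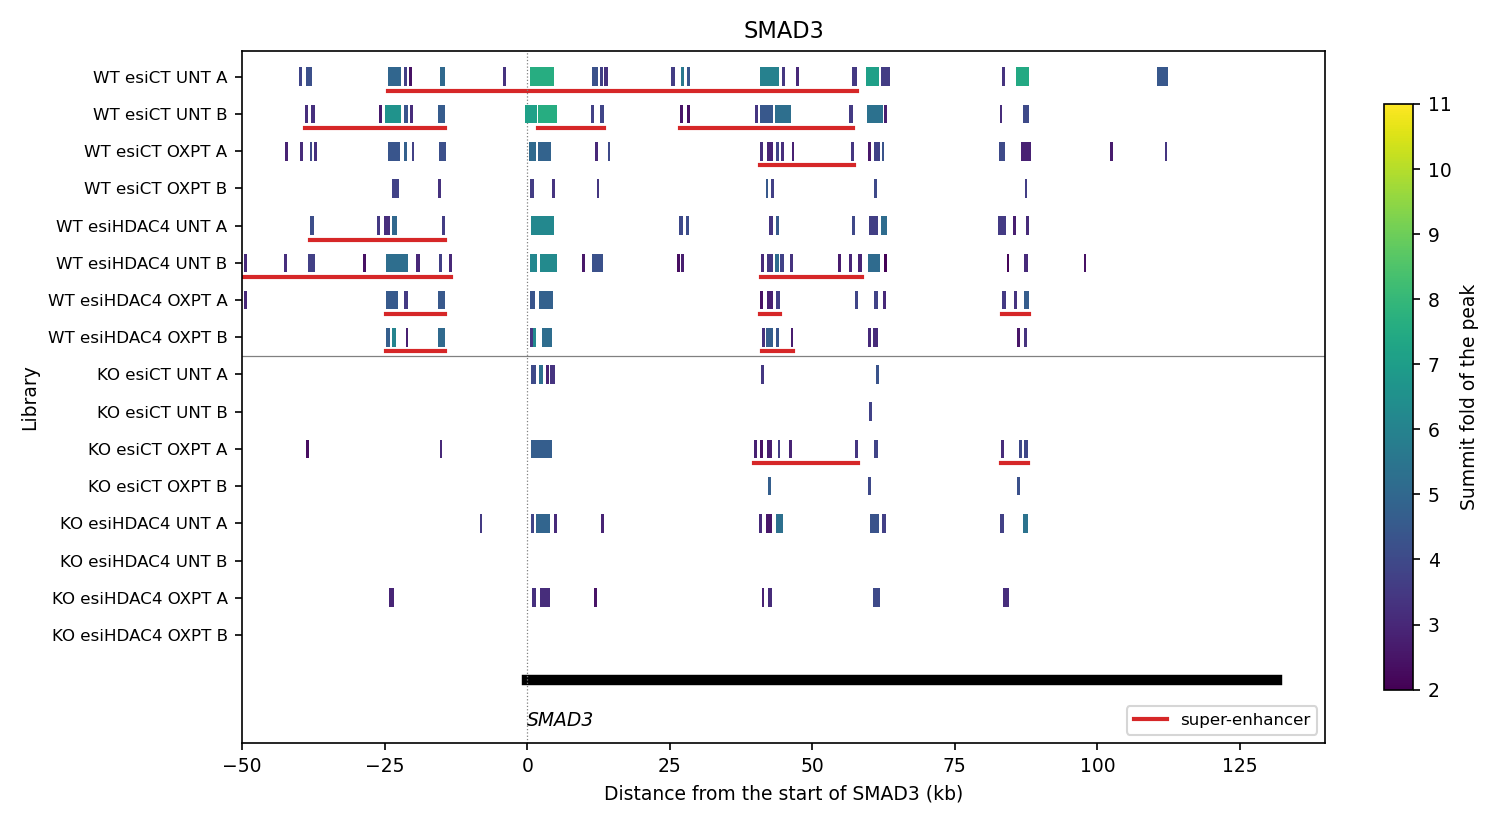
Peaks (bars, coloured by summit fold) and super-enhancers (red lines) in the 16 libraries by distance in kb from the start of SMAD3 (black bar, the gene). The upstream cluster is in every WT library and in 2 KO libraries, while the peaks within the gene recur in KO letter A.

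SMAD4, the common partner, had a peak in 6 WT libraries and 1 KO library. With a peak in 7 libraries, SMAD4 was under the minimum of 8 for the peak number test. By letter it was called in 4 (A) and 2 (B) of 4 WT libraries, and in 1 (A) and 0 (B) of 4 KO libraries. The share of genes with such a split was not counted, so it is not read as a result on SMAD4. The mean peak number was lower in KO for 63.3% of 10411 genes in letter A and 97.9% in letter B. Of its 2 start-site regions the first (chr18:51029294-51029913) was called in the 4 WT UNT libraries and no other, with folds of 2.97 to 4.43, as was a SMAD3 intronic region (chr15:67090352-67091271) with folds of 2.48 to 5.64. This pattern made up 3.76% of the 2471 regions called in exactly 4 libraries, and the WT UNT lists held 20234 to 27927 peaks. The second SMAD4 start-site region (chr18:51030232-51030971) was called in 5 letter A libraries.

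Among the inhibitors, SMAD7 had a start-site region called in 7 WT and 3 KO libraries, while TGIF1 was called throughout. SMAD7 had 5 and 2 peaks in WT esiCT UNT, 2 and 0 in WT esiCT OXPT, 2 and 4 in WT esiHDAC4 UNT and 1 and 1 in WT esiHDAC4 OXPT, against 0 to 2 in KO letter A and 0 in all 4 KO letter B libraries. Of the 15817 genes with a peak, 20.3% likewise had one in at least 3 WT letter B libraries and in no KO letter B library. Its start-site region (chr18:48948744-48951984) had folds of 3.37 to 6.48 in those WT libraries and 3.12 to 4.06 in those KO libraries. The region entered the fit of folds mainly through its 7 WT calls. The 4 KO letter B values were again set, not measured, as were those of KO esiCT UNT A and WT esiCT OXPT B. The result is therefore a description only, and 20.9% of the 10762 regions tested were called lower in KO and 0.26% higher. KO minus WT was -0.91 ± 0.32 (log2, SE, limma, adjusted p = 0.0328), and the call was lost with uncalled libraries at the lowest callable fold (-0.24, adjusted p = 0.336), with quantile normalization (adjusted p = 0.422), without the letter (adjusted p = 0.136), and without 1 of 8 libraries (adjusted p = 0.0699 to 0.0997). These were WT esiCT UNT B, WT esiCT OXPT A, WT esiHDAC4 UNT B, WT esiHDAC4 OXPT B, KO esiCT UNT A, KO esiCT OXPT B, KO esiHDAC4 UNT B and KO esiHDAC4 OXPT B.

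SKIL had a single region, at its start (chr3:170357624-170358660), called in 5 WT libraries and 5 KO libraries with folds of 4.15 to 6.55. It was called in 7 of 8 UNT and 3 of 8 OXPT libraries, and the difference did not pass (exact test stratified by letter, p = 0.0714, adjusted p = 1, 0% of 20090 regions called). All 3 OXPT calls were in letter A. TGIF1 had a peak in all 16 libraries, 1 to 6 per library. Its main start-site region (chr18:3448429-3455972) was called in all 16, with folds of 4.88 to 9.42 in WT and 3.62 to 10.3 in KO that overlapped (KO minus WT 0.04, limma, adjusted p = 0.863). No super-enhancer was listed for it in any library.

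TGFBI, the target, had 1 peak, in WT esiHDAC4 UNT B, with a fold of 3.14, and none in the other 15 libraries. A weaker mark would not be detectable in lists of this length. Only TGFBR2 and SMAD3 had a super-enhancer in their window, and 1617 genes, 8.08%, had one in at least 1 library.

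Within the 10 kb windows, no test of OXPT or of esiHDAC4 passed the threshold for any of the 9 genes. The far upstream TGFBR2 region called only with OXPT is among the regions called higher by summit fold, but it was picked for that pattern and its test is not used. For peak numbers, OXPT minus UNT was -0.03 for TGFBR2, -0.07 for SMAD3, -0.36 for SMAD7, -0.50 for SKIL, -0.10 for TGFB1 and 0.13 for TGIF1 (log2 scale, adjusted p = 1 for each), and esiHDAC4 minus esiCT lay between -0.36 for SMAD3 and 0.24 for TGFB1 (adjusted p = 1). In these tests 0% of genes were called, and 117 and 18 of 10411 genes had an unadjusted p under 0.05. Among summit folds, 0.688% of regions were called with OXPT, 0.669% higher and 0.0186% lower. No region in the 10 kb windows was among these, and 0% were called for esiHDAC4, for OXPT in either genotype with esiCT, for the difference between those, or for esiHDAC4 in KO OXPT cells.

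The TGFBR2 peak numbers were lower with OXPT in every WT pair of the same letter, and equal or higher in KO. In WT all 4 OXPT libraries, 11 to 13 peaks, lay below the 4 UNT libraries, 16 to 24, as for 2.98% of 10411 genes, while in KO they overlapped, 3 to 12 in UNT and 7 to 20 in OXPT. Per 10000 peaks of the list the WT groups overlapped as well, 7.68 to 9.47 in UNT and 5.34 to 11.4 in OXPT. The whole lists held 20234 to 27927 peaks in WT UNT and 10562 to 24346 in WT OXPT. By pair, list length and TGFBR2 peaks went from UNT to OXPT as follows. WT esiCT A went from 27927 to 24346 with TGFBR2 from 23 to 13, and B from 25333 to 10562 with 24 to 12. WT esiHDAC4 A went from 20234 to 20136 with 16 to 11, and B from 27335 to 19352 with 21 to 12. KO esiCT A went from 12639 to 21875 with 11 to 20, and B from 6126 to 8216 with 7 to 7. KO esiHDAC4 A went from 21290 to 18343 with 12 to 14, and B from 1752 to 6084 with 3 to 12. The part of list length in the result was not tested. The SKIL start-site region was called in 4 of 4 WT UNT libraries and in 1 of 4 WT OXPT libraries. How many regions showed this split was not counted, so it is not read as an effect of OXPT. Over all libraries the OXPT test of this region did not pass.

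The other genes of the pathway were read from a list of 40. Of these, 25 had a peak in at least 8 libraries and 5 in all 16, namely GDF15, SMURF2, LTBP3, ID1 and CDKN1A, which were named after their values were seen, while BMP2, PMEPA1 and CCN2 had none. Of all 20007 genes, 10411 had a peak in at least 8 libraries, and 2.42% had one in all 16. A super-enhancer was listed in at least 1 library for 12 of the 40 and in at least 8 for 4, against 8.08% and 1.38% of all genes. SMURF2, a ubiquitin ligase that acts on the receptors and SMADs, had a super-enhancer in 16 libraries, GDF15, a stress-induced ligand of the family, in 15, and ID1, a BMP target, in 11. ID3 had one in 8, JUNB in 7, and LTBP3 and LTBP4, which encode latent TGF-beta binding proteins, in 5 each. The ID3 super-enhancer was in 6 KO and 2 WT libraries. None of the 25 tested genes passed for peak number in KO against WT: 24 lay lower and 1 higher, with a median of -0.57 beside -0.59 over all genes. None passed with OXPT, 13 higher and 11 lower, or with esiHDAC4, 11 higher and 14 lower. Of the 7 with a super-enhancer in 3 to 13 libraries, none passed in any comparison.

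Genes whose highest fold moved most like these across the 16 libraries were listed as a description, with uncalled libraries at the lowest fold of the list, so that shared absences weigh heavily. For TGFBR2 they were GALNT13 (Pearson r = 0.769), ELF3 (0.656) and TMF1 (0.654), among 10407 genes. For SMAD3 they were STK40 (0.974), DNAJB1 (0.973) and TECR (0.973), each with a peak in 14 libraries. DNAJB1 and TECR overlap on chromosome 19. For SKIL they were SAMD12 (0.881), TAX1BP1 (0.876) and AATF (0.873). The points share libraries and their depth.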

How the data were processed

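H3K27ac ChIP-seq of 16 libraries was analysed from the deposited peak lists and super-enhancer lists. The study trimmed and aligned paired reads to hg38, removed duplicates, called peaks and ranked super-enhancers with ROSE. The submitters' processing notes name Trimmomatic 0.39, Bowtie2 2.4.4, SAMtools 1.18 and MACS2 2.2.7.1. In the deposited narrowPeak files, the authors' MACS2 values are the fold enrichment ratio at the summit, a score, -log10 p and -log10 q, and the summit offset. Whether the deposited super-enhancer lists were restricted by H3K4me1 was not given in the sources used here. The 4 input samples and the 533 peaks on other contigs were not used.

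The 9 genes, the list of 40 and the markers were chosen with earlier results of these data known. Peaks were assigned with GENCODE 44 (python 3.11.15, numpy 2.4.6, pandas 2.3.3). A start site was any annotated start within 1 kb. Each region or gene was tested over the whole table with Benjamini-Hochberg adjustment (threshold 0.05): presence by an exact two-sided test stratified by letter (scipy 1.17.1), peak numbers by a two-sided exact permutation test within letters, whose 4900 arrangements give a smallest p of 0.000408, and log2 folds of regions called in at least 8 libraries by limma 3.58.1 in R 4.3.3, with letter and group as terms. Libraries without a call took the lowest fold of their list, and each library was centred on the regions called in all 16. The study tested read counts with DiffBind and edgeR, which were not used here. The letter is the study's own batch term. Named genes were all 9 genes, their start-site and other most often called regions, those past the threshold, and by fixed rule the pathway genes given. The SMAD3 flank regions beyond 10 kb were added after the data were seen. Procedures were tested on simulated data.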

Additional observations from a re-analysis of the deposited data

Results flagged for a closer look

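In 4 of the 60 pairs of effects compared on peak numbers, both letters of one group moved one way and both of the other group the opposite way. The differences themselves were not tested, and how often other genes show this pattern was not counted. The 500 kb window of TGFBR2 contains its 10 kb window, so results from both are not separate. The TGFBR2 peaks within 10 kb changed with OXPT in esiHDAC4 cells from 16 to 11 and from 21 to 12 in WT (mean -7), and from 12 to 14 and from 3 to 12 in KO (mean 5.5), a difference of 12.5 peaks between KO and WT. Within 500 kb of TGFBR2 the change with OXPT in esiCT cells was from 32 to 20 and from 32 to 19 in WT (mean -12.5), and from 12 to 32 and from 10 to 11 in KO (mean 10.5), a difference of 23 peaks. In esiHDAC4 cells it was from 20 to 17 and from 28 to 18 in WT (mean -6.5), and from 19 to 20 and from 3 to 15 in KO (mean 6.5), a difference of 13 peaks. The TGIF1 peaks within 10 kb changed with esiHDAC4 in UNT cells from 4 to 5 and from 3 to 5 in WT (mean 1.5), and from 5 to 4 and from 5 to 1 in KO (mean -2.5), a difference of -4 peaks. The whole lists went from 27927 to 24346 and from 25333 to 10562 peaks with OXPT in WT esiCT, from 12639 to 21875 and from 6126 to 8216 in KO esiCT, from 20234 to 20136 and from 27335 to 19352 in WT esiHDAC4, and from 21290 to 18343 and from 1752 to 6084 in KO esiHDAC4. Their part in these results was not tested.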

How the results depend on the processing

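Presence tests of regions and super-enhancers, and peak number tests of OXPT and esiHDAC4, called 0 under every alternative run, by the exact tests named. These counts say little about stability, because the exact tests allow few outcomes over tables of this size. With 1 letter alone, only 4 libraries stood against 4. In the presence test a complete switch is the strongest outcome, and of 20090 regions 29 were lower and 1 higher in this way in KO against WT. Peak number in KO against WT called 0 genes, 3170 with a window of 50 kb and 0 to 2214 with 1 library left out, 2214 being without WT esiCT OXPT B. Against 2281 regions by summit fold in KO against WT, the count was 53 for peaks with -log10 q of at least 10, 360 with quantile normalization, 17 among regions in all 16 libraries, 403 with uncalled libraries at the lowest callable fold (added after the data were seen), and 783 to 2843 with 1 library left out. For OXPT against UNT the 74 regions became 6 at -log10 q of at least 10, 37 without centring, 0 among regions in all 16 libraries, and 36 to 184 with 1 library left out. For esiHDAC4 against esiCT 1 region passed at -log10 q of at least 10 and 0 to 13 with 1 library left out. For OXPT in WT esiCT 3 passed at that limit, 7 with quantile normalization and 32 at the lowest callable fold, and for OXPT in KO esiCT 0 to 7 with 1 library left out. The difference of these effects gave 1 region without centring and 0 to 1 with 1 library left out. For esiHDAC4 in KO OXPT, merging within 500 bp gave 2 and leaving out 1 library 0 to 5. The cause was not tested. The TGFBR2 peak number in KO against WT turned from -0.66 to 0.49 with lists of equal length and 0.40 per 10000 peaks. That of TGIF1 turned from -0.20 to 0.32 and 0.63, and to 0.24 in letter A alone. The SMAD3 number kept its sign in these settings, -1.12 with lists of equal length (adjusted p = 0.448). SMAD7 passed for peak number without WT esiCT OXPT B (-1.21, adjusted p = 0.0382) or KO esiCT OXPT A (-1.12, adjusted p = 0.0499).

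No replicate block, that is no letter in the fit, gave 410 regions in KO against WT and 9 in OXPT against UNT. Over 472 regions in all 16 libraries, deviations of same-lettered libraries correlated from -0.06 to 0.39 across 28 pairs of groups (median 0.05), with 12 above 0.1. Some pairs of groups thus shared deviations by letter, and this check does not settle whether the letters pair the libraries. The length of the lists, lowest at 1752 peaks, limits what an uncalled place can show.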
